A study of Homo sapiens with 6 samples.

Results

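The response of 769-P cells to SPOP knockdown was described from 3 RNA-seq libraries of the 6 in the series. 769-P is an established human clear cell renal carcinoma line. 1 library came from cells given negative control siRNA (labelled NC), 1 from cells given SPOP siRNA 1 and 1 from cells given SPOP siRNA 2, with no other treatment in any of the 3. The other 3 libraries hold the same design in DU145, a prostate carcinoma line, and are used only where the lines are compared. The sources used here do not give the time between transfection and harvest for the RNA. The study's methods speak of biological replicates of each sample. The labels name 1 library for the control and 1 for each siRNA in a line, and do not say whether these came from separate cultures, so the p-values measure the spread between libraries that differ in their siRNA.

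Gene expression was given as FPKM, fragment counts scaled to transcript length and to the mapped fragments of the library. Long-RNA genes were counted when they reached at least 5 FPKM in any of the 3 libraries of 769-P, which left 7962 of 24551 gene symbols. Of these, 7478 reached 5 FPKM in the control, and 484 were counted through the siRNA libraries only. Each siRNA library was set against the control on the log2(FPKM + 1) scale, a scale that understates the change of low genes. A gene is called higher or lower here when both siRNA libraries differed from the control by at least 2-fold, or at least 1.5-fold where that is said, in the same direction. The control has no replicate. An exact permutation test of 1 library against 2 cannot give a p below 0.333, so the error of each difference is shown by the separate values of the siRNA libraries, and p-values come from a limma fit across all genes that borrows the spread of DU145.

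SPOP is the substrate-binding subunit of a CUL3 ubiquitin ligase, and in renal carcinoma cells it has been described as a cytoplasmic factor that marks tumour suppressor proteins for degradation. Interferon-stimulated genes are a set of antiviral genes that carry an interferon-stimulated response element, ISRE, in their promoters to which interferon-activated transcription factors bind. Many tumour lines express them at a low constant level. NRF2, held in check by KEAP1, drives antioxidant genes through the antioxidant response element, ARE.

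The knockdown was seen in both siRNA libraries. SPOP (chr17:47676246-47755525, minus strand, GRCh37, the build of the files) was at 11.6 FPKM in the control, 1.53 FPKM with siRNA 1 and 1.39 FPKM with siRNA 2. This left 13.2% and 12.04% of the control level. The log2 fold change was −2.35 with a standard error of 0.24, and the limma adjusted p was 0.0948. In DU145 the level of SPOP went from 16.1 to 2.77 and 2.96 FPKM. CUL3, the scaffold of the ligase, was at 10.9, 11.4 and 8.51 FPKM in the 769-P control, siRNA 1 and siRNA 2 libraries, and SPOP was the only called gene among 20 counted ligase subunits and partners. Among 24 counted genes whose proteins are known or proposed SPOP substrates, DEK (86.6 FPKM in the control, 49.5 and 49.96 FPKM with the siRNAs) and SQSTM1 were at least 1.5-fold lower (8.33% of the list, against 3.86% of all genes counted) and none was higher. SETD2, a histone methyltransferase, was at 5.39, 4.54 and 5.01 FPKM.

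The identity of the cells was checked with marker genes. Of 14 genes typical of renal carcinoma lines, 12 reached 5 FPKM, with PAX8, a kidney lineage factor, at 125, 106 and 120.3 FPKM against 1.10 to 1.47 FPKM in DU145. CA9 was listed at 0. Of 10 prostate markers none reached 5 FPKM, and KLK2, KLK3, KLK4, FOLH1 and TMPRSS2 were at 0. The summed level of 7 endothelial markers was between 0 and 0.354 FPKM, and that of 13 blood cell markers between 55.8 and 77.8 FPKM, with CD3D, CD3E and HBA1 at 0. The siRNA 2 library stood apart from the rest of 769-P in low values: 237 of 366 olfactory receptor genes were above 0 there, against 4 in the control and 3 in the siRNA 1 library, with a mean of 0.227 FPKM over the family. Subtracting each library's mean gave 26 lower interferon effectors, 10 NRF2 targets and 13 mitosis genes, lists described below, and of the 192 genes past 2-fold, or on a list and past 1.5-fold, XPC alone no longer passed. The depth of each library is unknown in counts. From the spacing of low values, the siRNA libraries were 1.06 and 1.40 times as deep as the control.

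Against this background, 58 genes were at least 2-fold higher (0.728% of the genes counted) and 44 at least 2-fold lower (0.553%) with both siRNAs. At 1.5-fold, 316 genes were higher (3.97%) and 307 lower (3.86%). With siRNA 1 alone 200 genes were at least 2-fold higher and 215 lower, and with siRNA 2 alone 99 and 98. At 1.5-fold, 927 were higher and 805 lower with siRNA 1 alone, and 488 and 705 with siRNA 2 alone. Of the 58 higher genes 26 were counted through the siRNA libraries only, and of the 44 lower genes 21 through the control only. The genes nearest the 2-fold threshold were HS3ST3A1 inside it (log2 fold changes 1.01 and 1.29) and PCK2 outside it (0.998 and 1.07), and on the lower side TDP2 inside (−1.07 and −1.01) and FAM111B outside (−0.99 and −1.34). LANCL2 just passed the filter at 5.0005 FPKM. In the limma fit, 2 of 7960 counted genes (0.0251%) had an adjusted p under 0.05, IFI6 and IFI27, and 638 had an unadjusted p under 0.05. Both were lower, and neither passed in fits without siRNA 1 or without siRNA 2, in which the lone siRNA library was assumed to vary like DU145.

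The fold changes moved with the GC content of the transcripts. GC content was matched for 7691 genes (96.6% of those counted), taking the longest annotated transcript. Its Spearman correlation across genes with the fold change was 0.45 with siRNA 1 and 0.49 with siRNA 2, and −0.04 with the difference between the siRNA libraries, as a description over genes that share libraries. Genes at least 1.5-fold higher had a median GC content of 57.1%, those lower 40.5%, and all genes counted 49.0%. Among 10 groups of genes of equal size by GC content, the lowest held 100 genes 1.5-fold lower and 5 higher, and the highest 8 and 84. The control library is alone in its group, so its own GC composition and the knockdown cannot be told apart. Below, the main lists are therefore also given after centring each siRNA library on the median of its GC group, called GC centring here and chosen after seeing the data. With it 261 genes were 1.5-fold higher (3.39% of those matched) and 157 lower (2.04%).

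**Figure D1:**
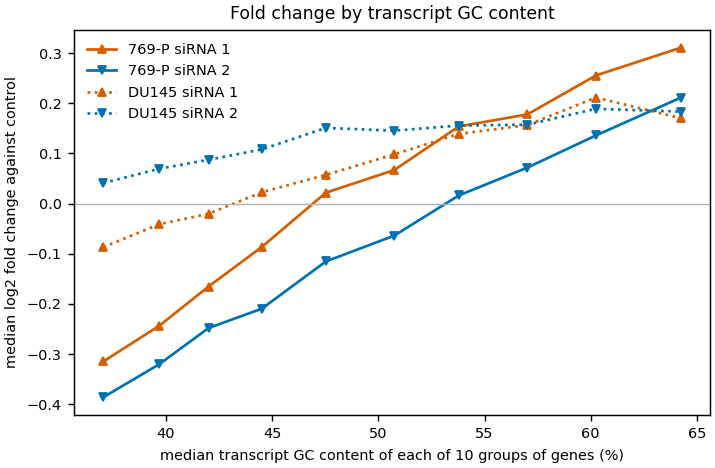
Median log2 fold change against the control in each of 10 groups of genes by transcript GC content, for both siRNA libraries of 769-P (solid) and of DU145 (dotted). In 769-P the medians run from −0.31 and −0.39 in the group of lowest GC content to 0.31 and 0.21 in the highest.

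Interferon-stimulated genes were the largest group among the decreases. Of 45 counted interferon-stimulated effectors, 26 were at least 1.5-fold lower, 57.8% of the list against 3.86% of all genes counted, and none was higher. The filter bears on these shares. Some of the 26, such as OAS2 and IFIT5, were counted through the control only, as were 91 of all 307 lower genes. When the average of the 3 libraries had to reach 5 FPKM, 19 effectors were lower, among 243 lower genes. With 1 FPKM in any library 36 effectors were lower, among 454 lower genes. With the filter of 5 FPKM in any library, 28 effectors were lower with siRNA 1 alone, where 805 of the 7962 genes counted were. With siRNA 2 alone 26 were lower, where 705 genes were. Of the 26 lower with both, 18 were at least 2-fold lower, and together with the lists of interferon signalling and antigen presentation they gave 22 of the 44 genes past 2-fold. The list's median log2 fold change was −0.96, against −0.04 over all genes counted. Its median GC content was 49.0%, and after GC centring 24 were lower with a median of −0.68. To show what these genes share in sequence, the 60 bases around the ISRE match nearest the start site, upstream of it, are given for 8 of the reduced members in which a match was found (RefSeq, GRCh38.p14, read 5′ to 3′ on the strand of the gene). In these 8 the match lies on the strand of the gene. IFIT3 and PLSCR1, not shown, held a match and were more reduced than PARP14. In IFIT3, TRIM14 and PARP9 the match lies on the opposite strand. Capitals mark the match, which is GAAA followed after any 2 bases by GAAA. For OAS3 and PARP14 the window stops at the start site.
IFI27, chr14:94110616-94110675, plus strand: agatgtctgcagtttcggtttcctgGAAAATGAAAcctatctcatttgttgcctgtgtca
IFI6, chr1:27672251-27672310, minus strand: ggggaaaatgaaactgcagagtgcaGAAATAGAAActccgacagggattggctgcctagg
BST2, chr19:17405720-17405779, minus strand: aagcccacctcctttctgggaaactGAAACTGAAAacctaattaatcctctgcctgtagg
IFITM1, chr11:313975-314034, plus strand: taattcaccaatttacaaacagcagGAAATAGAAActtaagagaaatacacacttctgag
ISG15, chr1:1013365-1013424, plus strand: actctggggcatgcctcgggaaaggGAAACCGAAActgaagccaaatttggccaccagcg
OAS3, chr12:112938437-112938473, plus strand: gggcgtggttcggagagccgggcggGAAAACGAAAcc
IFITM3, chr11:320861-320920, minus strand: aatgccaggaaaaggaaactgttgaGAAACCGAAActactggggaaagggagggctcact
PARP14, chr3:122680785-122680838, plus strand: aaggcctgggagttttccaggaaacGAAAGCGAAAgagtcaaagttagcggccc

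The match was searched on both strands of promoter windows of 300 bases, 250 before the start and 50 after it. It was found in 17 of the 23 lower effectors with a promoter entry (73.9%), and in 8 of the 13 effectors with an entry that were not 1.5-fold lower (61.5%). The share was 3.57% over 35116 promoter entries of all genes and 3.58% among the genes counted. Among all genes at least 2-fold lower, 14 of 32 with an entry held the match (43.8%), against 3 of 45 among genes at least 2-fold higher (6.67%). All of these 14 except TXNRD1 are among the 17 lower effectors above, so this share is not a separate result.

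The largest decrease was that of IFI27 (chr14:94571182-94583032, plus strand, GRCh37), a mitochondrial interferon-stimulated protein, which was at 35.5 FPKM in the control and was listed at 0 in both siRNA libraries. Its limma adjusted p was 0.0161, in a fit to which its equal siRNA values add no spread. In all, 4 counted genes were listed at 0 in any library of 769-P. IFI6 (chr1:27992575-27998723, minus strand), a related protein, was at 134 FPKM in the control, 3.50 FPKM with siRNA 1 and 4.16 FPKM with siRNA 2. Its levels were thus 2.61% and 3.11% of the control, with a log2 fold change of −4.81, a standard error of 0.23 and a limma adjusted p of 0.00361. BST2, or tetherin, which holds budding virions at the cell surface, was at 17.0 FPKM in the control and 0.231 and 0.522 FPKM with the siRNAs. For both IFI6 and BST2 the siRNA libraries lay close together and far from the control.

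The 3 counted oligoadenylate synthetases, which sense double-stranded RNA and activate RNase L, were all lower. OAS1 was at 24.9, 2.85 and 3.84 FPKM in the control, siRNA 1 and siRNA 2 libraries. OAS2 was at 5.21, 0.0593 and 0.0448 FPKM, the last values below the olfactory receptor mean of the siRNA 2 library. OAS3 was at 38.9, 8.95 and 9.08 FPKM. For all 3 genes the siRNA libraries lay closer to each other than to the control on the log2 scale. EIF2AK2, the kinase PKR that also senses double-stranded RNA, was at least 1.5-fold lower, at 10.5, 4.99 and 4.87 FPKM.

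ISG15, a ubiquitin-like modifier, was at 78.6 FPKM in the control and 14.3 and 19.3 FPKM with the siRNAs. USP18, the protease that removes ISG15 and dampens receptor signalling, was at 10.6, 2.24 and 2.01 FPKM. The membrane proteins that block viral entry followed: IFITM1 went from 9.08 FPKM to 0.705 and 0.532 FPKM, and IFITM3 from 70.9 FPKM to 18.5 and 21.3 FPKM. IFITM genes are close relatives whose reads may be shared, and how the counting split them was not tested.

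Other effectors of viral restriction were also lower. SAMHD1, which depletes deoxynucleotides, was at 32.7, 8.27 and 6.54 FPKM. IFIT3, which works with other IFIT proteins on viral RNA caps, was at 20.4, 3.49 and 6.88 FPKM, and IFIT5 and IFI44 were at least 1.5-fold lower as well. The scramblase PLSCR1 was at 20.7, 6.05 and 5.45 FPKM, and LY6E at 87.3, 29.8 and 30.9 FPKM. The ADP-ribosylation genes PARP9, PARP12 and PARP14 and DTX3L, the ubiquitin ligase partner of PARP9, were all lower, with mean log2 fold changes of −1.35, −1.06, −1.54 and −1.32. TRIM14, IFI35, RNF213, TDRD7 and ZC3HAV1 completed the set, with mean log2 fold changes between −1.35 (TRIM14) and −0.67 (ZC3HAV1). HELZ2, an interferon-inducible helicase on none of the lists, was at 11.9, 3.82 and 4.46 FPKM. Of the 45 effectors 40 were below the control in both siRNA libraries (88.9%, against 40.6% of all genes counted). Above it in both were 2 (4.44% against 33.3%).

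**Figure D2:**
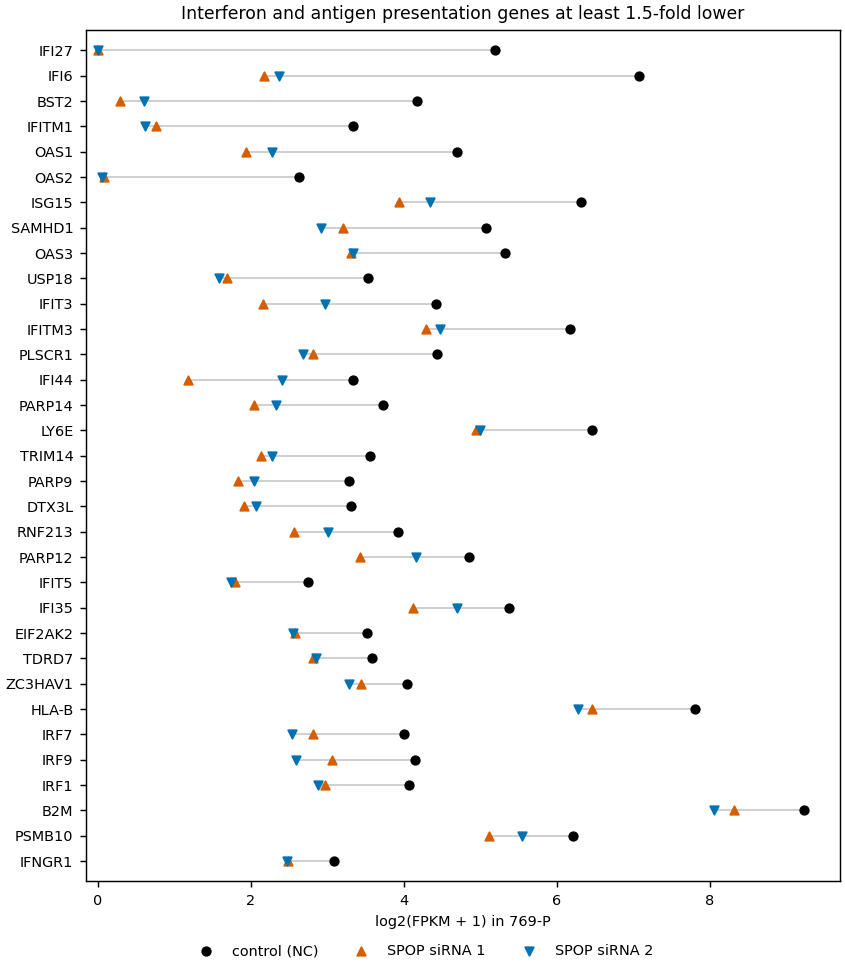
Levels of the 33 interferon, signalling and antigen presentation genes at least 1.5-fold lower with both siRNAs, as log2(FPKM + 1) in the 3 libraries of 769-P (black circle control, orange and blue triangles the siRNA libraries), ordered within lists by mean fold change. In every gene both siRNA libraries lie below the control, most widely for IFI27 (35.5 FPKM against 0) and IFI6 (134 FPKM against 3.50 and 4.16 FPKM).

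Some members of the list did not pass or did not reach the filter. MX1 was at 0.404 FPKM in the control and was not counted, and neither was IFIT1, at 4.15, 0.618 and 0.754 FPKM. GBP1, a guanylate-binding protein, was at 8.43, 6.10 and 7.22 FPKM. TNFSF10, the death ligand TRAIL, was at 70.3, 34.9 and 48.4 FPKM and missed 1.5-fold with siRNA 2.

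The signal transduction genes differed less. Of 25 counted genes of interferon signalling and RNA sensing, 4 were at least 1.5-fold lower (16.0% against 3.86% of all genes counted) and none was higher, with a median of −0.22. After GC centring 3 were lower, with a median of −0.17. IRF7 was at 15.1, 6.03 and 4.797 FPKM, IRF9 at 16.7, 7.36 and 5.06 FPKM and IRF1 at 15.8, 6.85 and 6.33 FPKM; these transcription factors are themselves interferon-inducible. IFNGR1, a chain of the interferon gamma receptor, was at 7.51, 4.59 and 4.54 FPKM. STAT2, which transmits the interferon signal to the nucleus, was at 5.90, 5.81 and 4.05 FPKM and did not pass. No promoter entry of the 18 counted genes of this list that have one held the ISRE match.

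In class I antigen presentation, 3 of 11 counted genes were at least 1.5-fold lower (27.3% against 3.86% of all genes counted). None was higher, and the median was −0.46. After GC centring 5 were lower, with a median of −0.55. B2M, the light chain of class I molecules, was at 601 FPKM in the control and 318 and 265 FPKM with the siRNAs. HLA-B was at 224, 86.7 and 76.7 FPKM and PSMB10, an immunoproteasome subunit, at 73.4, 33.7 and 45.8 FPKM. HLA-C (111, 73.1 and 76.3 FPKM) did not pass. HLA values were summed over several entries of near-identical genes, so the share of each gene is uncertain. Among 26 counted genes of NF-kB and cytokine signalling, 2 were higher and 2 lower at 1.5-fold. Each was 7.69% of the list, against 3.97% higher and 3.86% lower among all genes counted. After GC centring 1 was higher and 1 lower. BIRC3, an inhibitor of apoptosis induced by NF-kB, was at 27.8, 7.09 and 10.3 FPKM, and PTX3, a soluble pattern recognition protein, at 9.24, 26.9 and 20.01 FPKM.

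Antioxidant genes formed the next group of decreases. Of 26 counted NRF2 targets, 10 were at least 1.5-fold lower (38.5% against 3.86% of all genes counted) and none was higher. Below the control in both siRNA libraries were 22 (84.6%, against 40.6% of all genes counted). The median was −0.60. After GC centring 5 were lower, with a median of −0.51. TXNRD1, the thioredoxin reductase, was at 269.8 FPKM in the control and 111 and 93.8 FPKM with the siRNAs. GSR, which reduces glutathione, was at 87.2, 39.4 and 44.4 FPKM. Both subunits of the enzyme that starts glutathione synthesis were lower, GCLC at 16.1, 6.70 and 8.87 FPKM and GCLM at 56.2, 23.7 and 34.9 FPKM. NQO1, a quinone reductase, was at 175, 89.4 and 105 FPKM, EPHX1, an epoxide hydrolase, at 38.3, 19.6 and 19.04 FPKM, and SQSTM1, an autophagy receptor that binds KEAP1, at 854, 495 and 547 FPKM.

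The aldo-keto reductases differed most between the siRNAs. AKR1B10 was at 11.4 FPKM in the control, 0.416 FPKM with siRNA 1 and 6.71 FPKM with siRNA 2. AKR1C1 was at 54.3, 8.82 and 31.8 FPKM and AKR1C2 at 18.1, 4.31 and 8.10 FPKM. For all 3 the siRNA 2 value lay between the control and siRNA 1, and AKR1C genes are close relatives that may share reads. HMOX1, heme oxygenase, was at 255, 138 and 195 FPKM and did not pass. NFE2L2, the gene for NRF2 itself, was at 32.4, 19.3 and 22.3 FPKM, and KEAP1 at 54.0, 64.4 and 66.4 FPKM. With siRNA 1 alone 17 of the 26 targets were lower, where 805 of the 7962 genes counted were. With siRNA 2 alone 12 were lower, where 705 genes were. In DU145, where 0.879% of the same genes counted were 1.5-fold lower with both siRNAs, none of the 10 targets was. AKR1B10, AKR1C1 and AKR1C2 were at 0.755, 1.92 and 0.436 FPKM in the DU145 control. The highest olfactory receptor value there was 1.60 FPKM, so their direction in DU145 is uncertain. GSR and GCLM were past 1.5-fold lower with DU145 siRNA 1 (log2 fold changes −0.96 and −0.75) but not with siRNA 2 (−0.19 and −0.11). EPHX1 and NQO1 were below the DU145 control with siRNA 1 and above it with siRNA 2.

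The ARE letters TGACNNNGC were found in 3 of the 8 lower NRF2 targets with a promoter entry (37.5%) and in 3 of the 12 counted targets with an entry that were not lower. The share was 20.7% among the genes counted and 13.3% over all entries. They are shown for these 3 genes with up to 25 bases on each side (RefSeq, GRCh38.p14, strand of the gene, capitals for the match, which in GCLM lies on the opposite strand). The entry of TXNRD1 is the more upstream of its starts.
TXNRD1, chr12:104215655-104215713, plus strand: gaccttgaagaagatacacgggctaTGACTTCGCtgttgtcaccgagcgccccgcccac
EPHX1, chr1:225825251-225825309, plus strand: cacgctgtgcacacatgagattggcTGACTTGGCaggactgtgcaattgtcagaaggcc
GCLM, chr1:93909431-93909489, minus strand: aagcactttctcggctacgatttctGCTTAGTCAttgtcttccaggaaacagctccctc

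Some cell cycle genes were lower, by small amounts. Of 45 counted mitosis genes, 13 were at least 1.5-fold lower (28.9% against 3.86% of all genes counted), none was higher and none passed 2-fold. Below the control with both siRNAs were 35 (77.8%, against 40.6% of all genes counted). The median was −0.49. After GC centring 6 were lower, where 2.04% of all genes matched were, with a median of −0.40. NUF2 and NDC80, parts of the kinetochore, were at 27.7, 12.04 and 14.8 FPKM and at 12.8, 7.55 and 7.28 FPKM. CDK1, the kinase that drives mitotic entry, was at 43.7, 24.6 and 23.5 FPKM, and its partner CCNA2 at 45.3, 24.9 and 27.5 FPKM. TOP2A, the topoisomerase that untangles sister chromatids, was at 41.6, 25.9 and 21.2 FPKM. The kinases AURKA, NEK2 and BUB1, the checkpoint protein MAD2L1, and the cytokinesis genes ANLN, ECT2 and KIF23 passed as well, as did HMMR. CCNB1 (82.2, 57.2 and 63.1 FPKM), PLK1 (122, 104 and 76.2 FPKM) and MKI67 (21.96, 16.8 and 12.9 FPKM) did not. With siRNA 2 alone 22 of the 45 were lower, where 705 of the 7962 genes counted were. With siRNA 1 alone 14 were lower, where 805 genes were.

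Of 47 counted genes of DNA replication, 5 were at least 1.5-fold lower (10.6% against 3.86% of all genes counted), namely GINS1, GMNN, MCM10, PRIM1 and RFC3, and none was higher. Here 41 of the 47 were below the control with both siRNAs (87.2%, against 40.6% of all genes counted) and the median was −0.35. After GC centring 2 of the 47 were lower, against 2.04% of all genes matched, and the median was −0.35. PRIM1, the primase subunit, was at 14.1, 7.04 and 7.62 FPKM, and RFC3, of the clamp loader, at 30.2, 16.2 and 17.4 FPKM. With either siRNA alone 9 were lower, where 805 (siRNA 1) and 705 (siRNA 2) of the 7962 genes counted were. Of 25 counted G1 genes, 2 were at least 1.5-fold lower (8.0% against 3.86% of all genes counted) and 1 higher (4.0% against 3.97%). CCND1, the cyclin that starts G1 progression, was the most reduced of the G1 genes. It was at 379 FPKM in the control, 180.1 FPKM with siRNA 1 and 125 FPKM with siRNA 2, or 47.6% and 33.1% of the control. SKP2, which targets CDK inhibitors for degradation, was at 20.9, 12.2 and 11.7 FPKM. CDKN2B, the CDK4 inhibitor p15, was more than 2-fold higher at 4.95, 12.8 and 12.3 FPKM. CDKN1A, or p21, was at 210.1, 189 and 163 FPKM and CCNE1, cyclin E1, at 7.76, 15.0 and 9.11 FPKM, and neither passed.

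**Figure D3:**
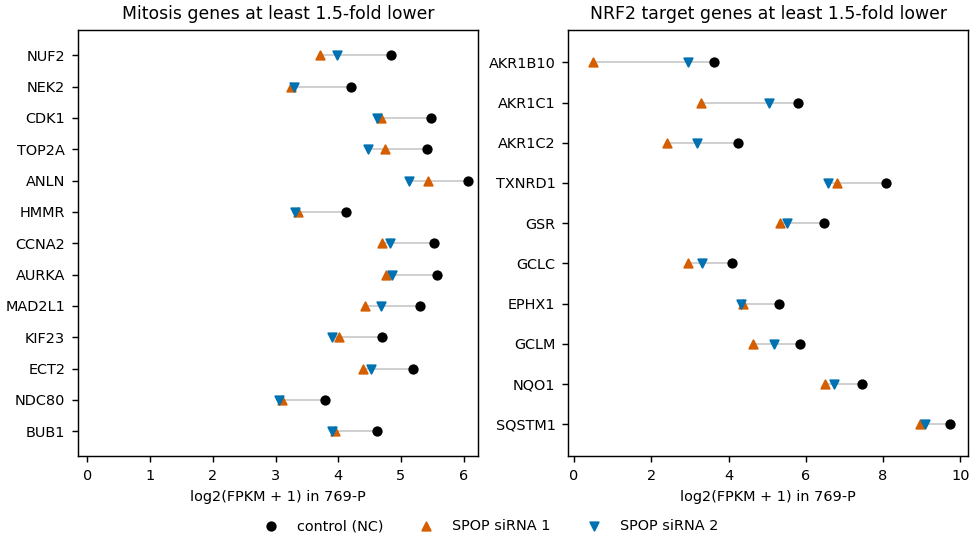
Levels of the 13 mitosis genes (left) and 10 NRF2 target genes (right) at least 1.5-fold lower with both siRNAs, as log2(FPKM + 1) in the 3 libraries of 769-P. The siRNA values of the mitosis genes lie close together, as for CDK1 at 24.6 and 23.5 FPKM, whereas those of AKR1B10 lie apart at 0.416 and 6.71 FPKM.

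Some single genes of other functions passed 1.5-fold with both siRNAs. The DNA repair genes DDB2 (19.8, 34.5 and 32.5 FPKM) and XPC (5.05, 8.51 and 8.12 FPKM), the AKT inhibitor PHLDA3 (116, 183 and 181 FPKM) and the pro-apoptotic BBC3 (18.3, 36.6 and 29.3 FPKM) were higher. MDM2, a ubiquitin ligase, was lower at 11.8, 7.45 and 4.77 FPKM.

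Gonadotropin beta genes, which lie on chromosome 19, were among the largest increases. CGB8 (chr19:49550895-49552368, minus strand, GRCh37) was at 11.4 FPKM in the control, 80.4 FPKM with siRNA 1 and 58.2 FPKM with siRNA 2. CGB5 was at 34.4, 154 and 151 FPKM, CGB at 1.95, 13.5 and 14.0 FPKM, and LHB, the beta chain of luteinizing hormone, at 2.30, 12.3 and 7.25 FPKM. In all 4 both siRNA libraries were well above the control, and CGB and LHB were counted through the siRNA libraries only. These 4 were 80.0% of the 5 genes counted on the list, against 3.97% of all genes counted at least 1.5-fold higher. Of 4 genes of the list with GC content 3 were higher after GC centring and 1 was lower. These genes are near-identical copies, so how reads were divided among them is uncertain and they should be read as 1 group. CGA, the alpha chain that all these hormones share, was lower, at 5.35, 0 and 2.26 FPKM. In DU145 CGB5 was at 2.47 FPKM in the control and 0.837 and 1.28 FPKM with the siRNAs.

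Some contractile genes were higher. Of 22 counted actin cytoskeleton genes 5 were at least 1.5-fold higher (22.7% against 3.97% of all genes counted) and none lower, with a median of 0.25. After GC centring 5 were higher. TPM4, a tropomyosin that stabilises actin filaments (chr19:16177831-16213812, plus strand, GRCh37), was at 88.9 FPKM in the control and 441 and 414 FPKM with the siRNAs, 4.96 and 4.65 times the control. Its log2 fold change was 2.25 with a standard error of 0.23 and a limma adjusted p of 0.0927. TPM2 was at 20.7, 47.7 and 56.5 FPKM. ACTA2, smooth muscle actin, was at 6.67, 40.0 and 22.1 FPKM, TAGLN, its binding protein transgelin, at 1.49, 8.73 and 4.95 FPKM and MYL9, a myosin light chain, at 16.2, 64.0 and 31.4 FPKM. For these last 3 the siRNA 1 value was the highest of the libraries, and TAGLN was counted through the siRNA libraries only. VASP, which promotes actin polymerisation, was also 2-fold higher at 57.3, 118 and 134 FPKM. Vimentin (VIM) was at 2499, 3692 and 3517 FPKM and did not pass.

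Some matrix genes were higher as well. Of 25 counted collagen and matrix genes, 6 were at least 1.5-fold higher (24.0% against 3.97%) and none lower, with a median of 0.20. After GC centring 3 were higher and 1 lower. COL1A1, a chain of collagen I, was at 1.71, 9.68 and 7.36 FPKM and was counted through the siRNA libraries only. COL6A1 was at 46.0, 82.3 and 94.7 FPKM, COL6A2 at 39.5, 72.5 and 95.2 FPKM and FN1, fibronectin, at 87.5, 155 and 174 FPKM. THBS1, thrombospondin, was at 21.6, 60.7 and 34.7 FPKM and MMP14, a membrane protease of the matrix, at 30.7, 47.0 and 62.3 FPKM. With siRNA 1 alone 11 of the 25 were higher, where 927 of the 7962 genes counted were. With siRNA 2 alone 8 were higher, where 488 genes were. Markers of fibroblasts and smooth muscle summed to 1.85 FPKM in the control and 10.4 and 7.85 FPKM with the siRNAs, nearly all of it COL1A1, while DCN, LUM, DES and COL3A1 were at 0 in all 3 libraries. Of 8 integrin subunits ITGA6 (10.3, 4.16 and 5.21 FPKM) and ITGB3 (9.90, 2.71 and 5.89 FPKM) were lower, and after GC centring 2 were.

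Of 18 counted genes of the activin and TGF-beta pathway, 4 were at least 1.5-fold higher (22.2%) and 1 lower, against 3.97% and 3.86% of all genes counted, with a median of −0.01. After GC centring 4 were higher and none lower. INHBA, the activin A subunit, was at 10.7, 55.2 and 28.1 FPKM. FSTL3, which binds and blocks activin, was at 11.1, 34.7 and 20.7 FPKM. ID1 and ID3, inhibitors of helix-loop-helix factors, were at 75.5, 174 and 154 FPKM and at 21.5, 43.6 and 41.6 FPKM. SKIL, a repressor of SMAD signalling, was lower at 5.05, 2.26 and 2.78 FPKM. In the insulin-like growth factor system IGFBP7 (227, 403 and 351 FPKM) and IRS1 (2.65, 7.55 and 4.83 FPKM) were higher among 8 genes counted, and after GC centring 2 were.

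**Figure D4:**
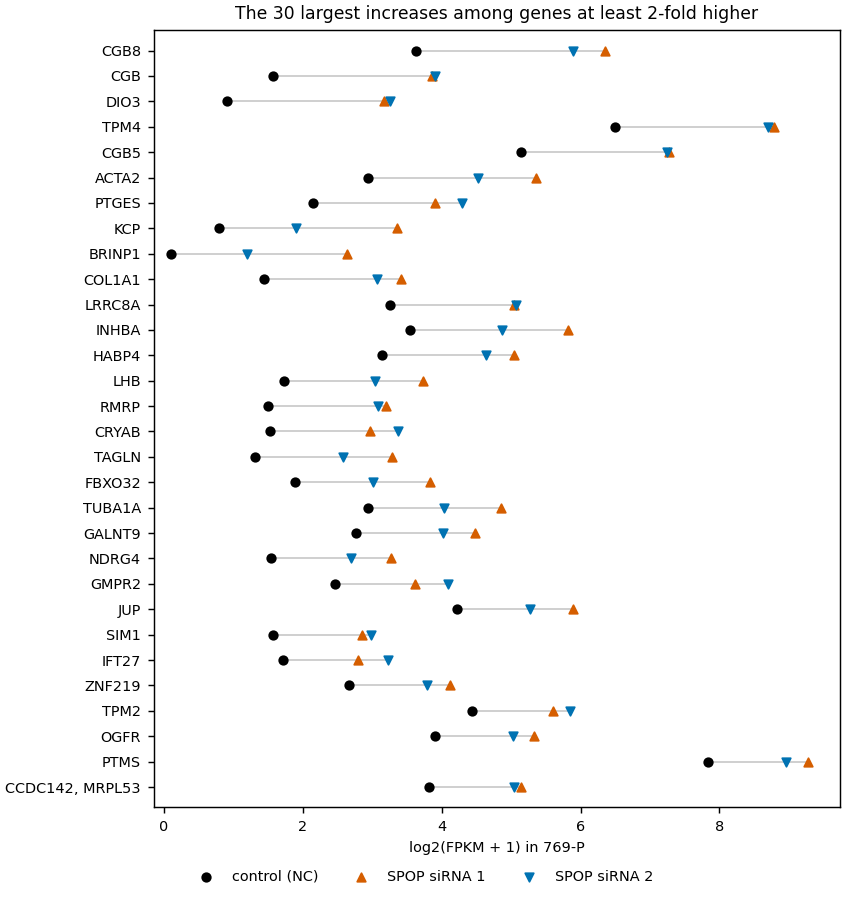
The 30 largest increases by mean log2 fold change among the 58 genes at least 2-fold higher with both siRNAs, as log2(FPKM + 1) in the 3 libraries of 769-P. Both siRNA libraries lie above the control in each gene, with TPM4 (88.9 against 441 and 414 FPKM) and PTMS among the most abundant.

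The other 2-fold increases were of many kinds. DIO3, the deiodinase that inactivates thyroid hormone, was at 0.879, 8.03 and 8.55 FPKM. LRRC8A, the essential subunit of the volume-regulated anion channel, was at 8.52, 31.8 and 32.4 FPKM. PTGES, a prostaglandin E synthase, was at 3.41, 14.0 and 18.5 FPKM. HABP4 was at 7.85, 31.9 and 23.8 FPKM. JUP, plakoglobin of desmosomes and adherens junctions, was at 17.6, 58.2 and 37.6 FPKM. PTMS, parathymosin, was at 227, 617 and 496 FPKM, the most abundant gene of the group in the control.

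The next 5 were below the filter of 5 FPKM in the control and were counted through the siRNA libraries only. The same held for genes given above, among them DIO3, PTGES, CGB, LHB, TAGLN, COL1A1, IRS1 and CDKN2B. CRYAB, a small heat shock protein, was at 1.89, 6.80 and 9.32 FPKM, RMRP, the RNA of the RNase MRP complex, at 1.82, 8.21 and 7.45 FPKM, and FBXO32, a ubiquitin ligase subunit of muscle atrophy, at 2.68, 13.3 and 7.07 FPKM. KCP was at 0.722, 9.25 and 2.72 FPKM and BRINP1 at 0.0704, 5.21 and 1.30 FPKM, so that in these the siRNA libraries differed widely from each other. TUBA1A, an alpha-tubulin, was above the filter in the control, at 6.68, 28.03 and 15.3 FPKM. GALNT9, NDRG4, GMPR2, SIM1, IFT27, ZNF219, OGFR and the row shared by CCDC142 and MRPL53 made up the rest of the 30 largest, with mean log2 fold changes from 1.48 (GALNT9) to 1.27 (the shared row). ORAI3, a calcium channel of store-operated entry, was at 8.21, 20.4 and 21.9 FPKM, and BICD2, a dynein adaptor, at 11.9, 29.3 and 26.6 FPKM.

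Among the remaining 2-fold decreases, RBMS1, an RNA-binding protein, was at 25.8, 6.90 and 9.66 FPKM, AMBP, the precursor of alpha-1-microglobulin, at 15.7, 3.13 and 6.49 FPKM, and AGPAT9, an acyltransferase of glycerolipid synthesis, at 7.02, 0.810 and 1.36 FPKM. HIST1H4C, a histone H4 gene, was at 17.0, 4.12 and 5.60 FPKM. ALDH3A2, the fatty aldehyde dehydrogenase, was at 12.1, 4.36 and 3.48 FPKM. ASPH, an aspartyl hydroxylase of the endoplasmic reticulum, was the most abundant at 114, 50.9 and 55.7 FPKM. TIMD4, a phosphatidylserine receptor, was at 6.70, 2.30 and 1.49 FPKM, and was listed at 0 in all libraries of DU145. FAM132B and SPA17, the other members of the 30 largest decreases, had mean log2 fold changes of −1.35 and −1.37.

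Many cell functions moved little. Over all genes counted, 3.97% were at least 1.5-fold higher and 3.86% lower. No ribosomal protein gene of 72 counted and no endoplasmic reticulum chaperone or unfolded protein response gene of 21 passed 1.5-fold, with medians of −0.12 and −0.03. Of 72 oxidative phosphorylation subunits 1 was lower and of 72 mitochondrial ribosomal proteins 2. Of 17 targets of hypoxia-inducible factors 1 was lower, of 25 glycolytic and pentose phosphate enzymes 1, and of 23 cholesterol genes 1 was higher and 1 lower. The proteasome list had 3 lower genes of 40 (7.5%), PSMA3, PSMB10 and PSMD12, and a median of −0.26. After GC centring it had 1 lower gene and a median of −0.15. Of 23 splicing factors 1 was lower, and their median of −0.32 went to −0.09 with GC centring. Below the control with both siRNAs were 78.3% of the splicing factors and 68.1% of the ribosomal protein genes, against 40.6% of all genes counted. Of 19 Polycomb genes JARID2 was higher (2.32, 6.98 and 5.44 FPKM, 5.26% of the list) and SUZ12, BCOR and PCGF5 were lower (15.8%).

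**Figure D5:**
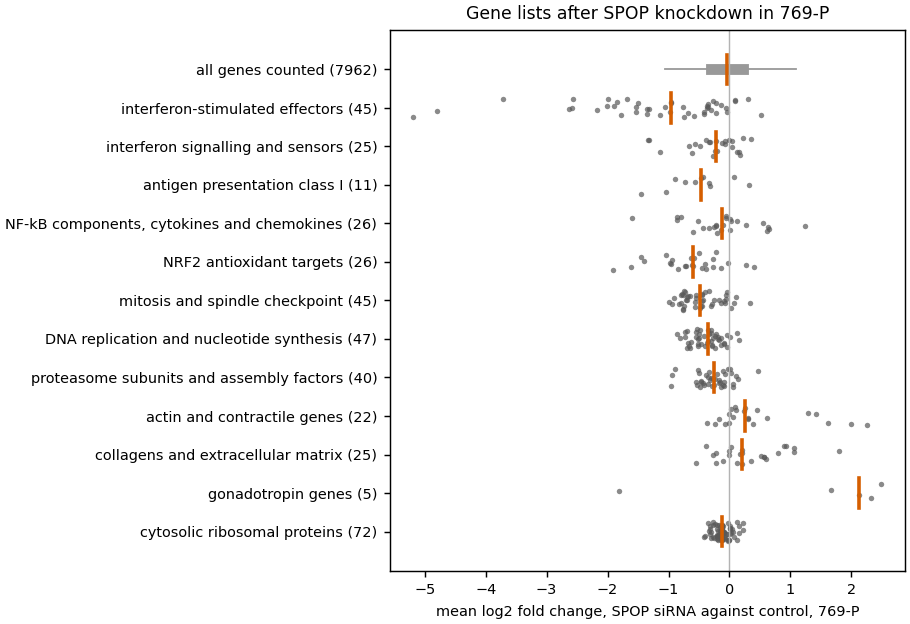
Mean log2 fold change of each counted gene (grey points) in 12 of the gene lists and the list median (orange bar), with all 7962 genes counted on top (thick bar the interquartile range, thin line the central 98%). The interferon-stimulated effectors extend to −5.19 with a median of −0.96, while the median over all genes is −0.04.

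The same siRNA design in DU145, with its own control, showed which of these values were met in the second line. Of the 44 genes 2-fold lower in 769-P, 11 were at least 1.5-fold lower in DU145 and none was that much higher, where 0.879% of the same genes were lower. Of the 58 genes 2-fold higher, 15 were at least 1.5-fold higher in DU145 and 6 lower, where 3.93% were higher. These 6 were CGB5, CGB8, DIO3, INHBA, LHB and PTX3, all between 0.51 and 2.47 FPKM in the DU145 control. The highest olfactory receptor value of that library was 1.60 FPKM, so their direction in DU145 is uncertain. Of the 58 genes, 14 were under 1 FPKM in all 3 DU145 libraries, as were 4 of the 44. Of the 26 lower interferon effectors IFI6, IFIT3, ISG15, OAS3 and PARP12 were also lower in DU145. IFI6 was at 106 FPKM in the DU145 control and 18.2 and 20.3 FPKM with the siRNAs, and ISG15 at 117, 54.0 and 62.7 FPKM. IFI27 was at 2.13, 3.44 and 1.73 FPKM there, and BST2 at 0.625, 1.06 and 0.359 FPKM. Of the increases, TPM4 was at 54.6, 167 and 209 FPKM in DU145, LRRC8A at 13.8, 38.3 and 38.0 FPKM and HABP4 at 8.35, 25.01 and 26.3 FPKM.

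The difference of the response between the lines was tested in the same limma fit. Among the counted genes only IFI27 passed, which at 2.13 FPKM in the DU145 control could not fall as far there as in 769-P. Its difference was −5.34 on the log2 scale, with a limma adjusted p of 0.0467. This call was lost in 8 of 10 alternative fits, and its adjusted p over the 10 was between 0.0433 and 1. For LY6E, which was at 160 FPKM in the DU145 control and 212 and 243 FPKM with the siRNAs, the adjusted p of the difference in limma was 0.31. For the other genes described here a difference between the lines was not shown.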

How the data were processed

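Per the labels and the study's methods, polyadenylated RNA was sequenced as paired 100-bp reads, trimmed with cutadapt after FastQC, mapped to hg19 with TopHat2 (at most 2 mismatches), and quantified with Cufflinks. The labels and methods name different library kits and RNA inputs. The authors deposited 1 FPKM table per library, and no counts. Symbols on several rows were summed. MIR, SNORA, SNORD and SCARNA symbols were left out, and 214 counted symbols name several overlapping genes. Fold changes used log2(FPKM + 1). limma 3.58.1 in R 4.3.3 fitted the 4 groups of 6 libraries (genes at a mean of at least 1 FPKM, 2 residual degrees of freedom, Benjamini-Hochberg adjustment) and was tested on simulated data. Named genes were SPOP, the 30 largest changes in each direction, genes past limma's threshold and list members past 1.5-fold, with others of a list for context. TXNRD1, HLA-B and similar genes fall under more than 1 of these. Members and the 51 gene lists were chosen with earlier results of these data known. A few genes, and 1 list, are not reported here. Without counts, FPKM tables give no counting interval. GC content and positions came from GENCODE v44 on GRCh37. Alternatives changed the pseudocount, filter, centring, row handling, background and libraries.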

Additional observations from a re-analysis of the deposited data

Results flagged for a closer look

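IFI27 stood out because its response differed between the lines in the limma fit. The log2 fold change in 769-P minus that in DU145 was −5.34, with a limma adjusted p of 0.0467. The call was lost in 8 of 10 alternative fits, with an adjusted p of 0.0585 with the replicate block and of 0.871 and 1 with either siRNA library left out. It was at 35.5 FPKM in the 769-P control and listed at 0 in both siRNA libraries, and at 2.13, 3.44 and 1.73 FPKM in DU145. From that DU145 control level a fall as large as in 769-P was not possible. The equal siRNA values of IFI27 in 769-P add no spread to the fit.

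Olfactory receptor genes, which none of the comparisons use, were above 0 for 237 of 366 genes in the 769-P siRNA 2 library, against 4 in its control and 3 in the siRNA 1 library. The highest of them was at 1.53 FPKM. In DU145 it was the control that held such values, with 287 genes above 0.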

How the results depend on the processing

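With a filter of 1 FPKM, or with no filter, 67 genes were at least 2-fold lower, and with no filter 474 were at least 1.5-fold lower. The lower interferon effectors were 36 with 1 FPKM and 37 with no filter. When the average of the 3 libraries had to reach 5 FPKM, 52 genes were higher and 32 lower at 2-fold. At 1.5-fold 281 were then higher and 243 lower, with 19 lower interferon effectors. Taking the mean of both siRNAs gave 113 higher and 95 lower genes at 2-fold, 561 and 641 at 1.5-fold, and 10 lower DNA replication genes, which were 3 with median-centred fold changes. With GC-centred fold changes 157 genes were at least 1.5-fold lower, with 5 NRF2 targets, 6 mitosis and 2 DNA replication genes lower and 3 matrix genes higher. Leaving out either siRNA library left a call on the other alone, which gave 99 to 200.0 genes higher and 98 to 215 lower at 2-fold, 488 to 927 and 705 to 805 at 1.5-fold, and 12 to 17 NRF2 targets, 14 to 22 mitosis genes and 9 DNA replication genes lower, with 8 to 11 matrix genes higher.

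In limma, 1 counted gene was higher with no filter and 1 with quantile normalization (TPM4, adjusted p 0.0351). No counted gene (0) was lower with the 769-P libraries alone or with either siRNA library left out, and 0 differed between the lines with a pseudocount of 0.1, a mean of 5 FPKM, small RNA genes left out, quantile normalization, the replicate block or either siRNA library left out, against 7 with no filter. BST2 passed with small RNA genes left out (adjusted p 0.0315) and with the background subtracted (0.0467), and IFI27 did not pass with no filter (0.234). The causes were not tested. The siRNA libraries of both lines share only a number. The correlation of their differences between the lines was 0.27 over 11865 genes, and with the replicate block 2 genes were lower in 769-P, as in the fit without the block, with an adjusted p of 0.107 for SPOP. Of the 192 genes past 2-fold, or on a list and past 1.5-fold, 18 no longer passed with median-centred and 53 with GC-centred fold changes, and none with a value changed direction under the fold change settings.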

Other observations

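The siRNA libraries of 769-P went opposite ways for 12 counted genes, each at least 1.5-fold from the control. KLF2, a transcription factor of endothelial and immune cells, was at 5.29 FPKM in the control, 19.7 FPKM with siRNA 1 and 2.63 FPKM with siRNA 2. RRAD, a small GTPase that limits calcium channels, was at 158, 258 and 74.7 FPKM, and PDZK1IP1, a membrane protein of kidney tubule cells, at 79.0, 40.1 and 131 FPKM. CDH16, the kidney-specific cadherin, was at 4.53, 9.76 and 2.22 FPKM. These 4 were chosen after their values were seen. The siRNA libraries were at least 2-fold apart for 196 counted genes. NPM1, a nucleolar protein with many pseudogenes, was at 1116, 329.6 and 739 FPKM in 769-P and at 432, 159 and 417 FPKM in DU145.

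Single genes of other functions passed 1.5-fold. BCL2, which blocks apoptosis, was higher at 2.24, 7.24 and 5.39 FPKM. NOLC1, a nucleolar chaperone, was at 35.0, 66.5 and 71.8 FPKM, and AARS, alanyl-tRNA synthetase, at 45.3, 76.1 and 68.8 FPKM. CLDN1, a tight junction protein, was lower at 288, 148 and 176 FPKM, and NT5E, the ecto-nucleotidase CD73, at 43.9, 21.8 and 20.2 FPKM. ACTR1B, ANKRD1, KRT7, PMVK, TCF3, TRAF2 and WIPI1 were also higher, and ATP5H, ATP6V0B, BNIP3, IL6ST, LAMP2, MRPL39, MRPS36, MT1F, RPE, SRRM1 and STARD4 also lower, with mean log2 fold changes between −1.12 (STARD4) and 1.06 (ANKRD1).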
